A study of Danio rerio with 12 samples.

Results

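This account follows 10 genes of T cell receptor signalling through 12 adult zebrafish kidneys, among them the coreceptor genes cd4-1 and cd8a, the kinase genes lck and zap70, the receptor genes il7r and cd28, and the transcription factor genes tbx21, foxp3a and bcl11ba. They were chosen by symbol, after earlier results of these libraries were known, and all 10 were found among the 30238 Entrez gene IDs in the files. RNA came from 3 kidneys labelled wild type (WT) and 9 labelled as heterozygous knockout of pdx1 (pdx1+/-), a homeobox gene of pancreas development. All were total kidney of adult fish, and the labels gave no strain, sex, age in days, allele or pooling, nor whether replicates were separate fish, so p-values measure only the spread between these samples. The 12 libraries, each called a kidney here, summed to between 16041392 and 19483852 estimated counts. Levels are given as CPM, counts scaled to library size with TMM factors, on which 3 counts, taken as the floor, equal 0.156 to 0.184 and cover counting error only.

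A T cell recognises antigen through its receptor, while the CD4 or CD8 coreceptor binds the presenting MHC molecule and brings the kinase Lck to the receptor complex. In mammals Lck phosphorylates the CD3 and zeta chains, Zap70 docks there and passes the signal on towards phospholipase C. CD28 gives the second signal, the interleukin 7 receptor keeps resting T cells alive, and T-bet, Foxp3 and Bcl11b mark Th1 and cytotoxic cells, regulatory T cells and the T lineage as a whole. In fish the kidney is the main blood-forming organ as well as the excretory one, so mature T cells are a minority among erythroid, myeloid, B lineage and tubule cells. In RNA of a whole organ, fewer T cells and less RNA per T cell cannot be told apart.

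The genes were expressed at low levels throughout. Of the 10, 9 had more than 3 estimated counts in every library. The exception was cd8a, with 2 counts in wild-type replicate 1. All 10 passed the filter on low counts, cd8a only through pdx1+/- kidneys. Scaled for transcript length, il7r led with 12.5 ± 5.13 TPM (SD, n = 12) and was above tbx21, the next gene, in 12 of 12 kidneys. The T-bet gene tbx21 had 6.84 ± 2.14 TPM. Below it lck had 4.51 ± 1.65 and zap70 4.11 ± 2.07 TPM. These kinase genes overlapped widely, with lck above zap70 in 10 kidneys.

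The coreceptor genes came next, with 2.901 ± 1.498 TPM for cd4-1 and 2.55 ± 1.54 TPM for cd8a (SD, n = 12). Lowest were bcl11ba at 1.95 ± 0.727, cd28 at 1.81 ± 0.982 and foxp3a at 1.68 ± 0.823 TPM. From cd4-1 downward each gene was above the next in only 7 or 8 of 12 kidneys, so this part of the order did not hold beyond the spread. Between il7r and foxp3a lay a ratio of means of 12.5 to 1.68 TPM.

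**Figure D1:**
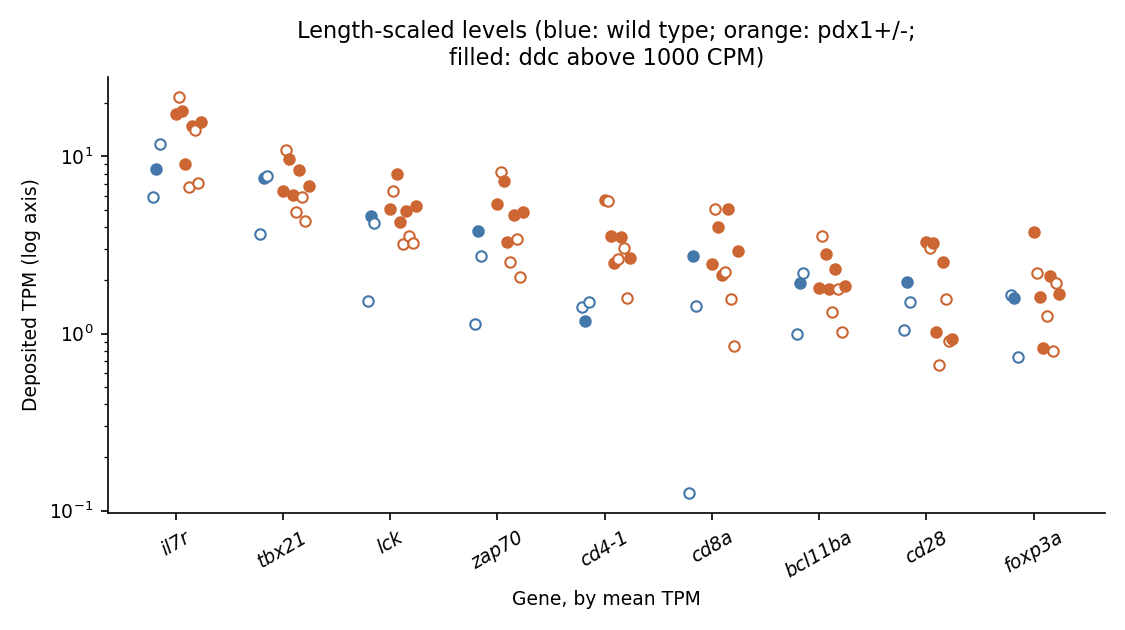
Deposited TPM (log axis) of each gene in every kidney, genes ordered by mean TPM; blue points are wild type, orange points pdx1+/-, and filled points have more than 1000 CPM of ddc. il7r lies above tbx21 in all 12 kidneys, while the ranges from cd4-1 to foxp3a overlap, and the single point far below the rest is cd8a in wild-type replicate 1 at 0.125 TPM.

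Among the coreceptor genes, cd4-1, the coreceptor of helper T cells, separated the genotypes. Its levels were 2.221, 1.703 and 2.159 CPM in wild-type replicates 1 to 3, and the 9 pdx1+/- kidneys lay between 2.60 and 8.37 CPM with a median of 4.75. Every pdx1+/- kidney was therefore above every wild-type kidney, with replicates 1 and 2 highest at 8.37 and 8.33 CPM and replicate 8 lowest. Such a gap without overlap was found for 1 of the 10 genes and for 0.695% of all 23732 genes tested. The log2 fold change of cd4-1 was 1.35 ± 0.33 (approximate SE; 5.17 ± 1.95 CPM, n = 9, against 2.03 ± 0.283 CPM, n = 3; edgeR quasi-likelihood test, adjusted p = 0.525). DESeq2 called it on the same counts (adjusted p = 0.0375). These estimated counts were not whole in 11 of 12 libraries (tolerance 0.001), so part of the reads of cd4-1 fitted other transcripts as well. Its difference was known when the genes were chosen, so these values are a description. In zebrafish cd4-1 is also expressed by mononuclear phagocytes; of 12 macrophage markers 7 were higher and 5 lower in pdx1+/- kidneys, and their summed level, of which cd74a and cd74b, genes of the MHC class II chaperone, made up the most, was 1881 to 3284 TPM in wild type and 2461 to 4170 TPM in pdx1+/-. The only macrophage marker that DESeq2 called was lower: csf1rb, a receptor gene for macrophage growth factors, at -0.96 ± 0.17 log2 units in edgeR (adjusted p = 0.266, and 0.00149 in DESeq2). Also lower was spi1b, a myeloid transcription factor gene, at -0.45 ± 0.13 (edgeR, adjusted p = 0.643). The abundant cd74a and cd74b were higher, at 0.71 ± 0.23 and 0.42 ± 0.22 (edgeR, adjusted p = 0.755 and 0.910). The part of these cells in the cd4-1 difference was not tested.

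For cd8a, the coreceptor chain of cytotoxic T cells, the groups overlapped. Wild-type replicates had 0.117, 2.38 and 1.24 CPM, the first from 2 counts. The pdx1+/- kidneys lay between 0.833 CPM in replicate 8 and 4.595 CPM in replicate 2, with a median of 2.20. Its estimate was 1.07 ± 0.63 log2 units (adjusted p = 0.937 in edgeR). When wild-type replicate 1 was left out this became 0.55, and 1.94 when replicate 2 was, so single wild-type libraries set its size.

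The other coreceptor genes tested were cd8b and cd4-2.2. The first, cd8b, the partner chain of cd8a, had 3, 30 and 27 estimated counts in the wild-type replicates and 19 to 103 in pdx1+/- kidneys, so both CD8 chains were at or near the floor in wild-type replicate 1. Between genotypes cd8b gave 1.32 ± 0.71 log2 units (adjusted p = 0.910 in edgeR). Like cd8a, it passed the filter on low counts only through pdx1+/- kidneys. cd4-2.2, a second CD4-like gene of fish, had 4.74, 17.2 and 8.74 CPM in wild type and 7.69 to 17.6 CPM in pdx1+/- kidneys. Its fold change on the log2 scale was 0.33 ± 0.37 (edgeR, adjusted p = 0.992), and unlike cd4-1 its groups overlapped.

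Ratios inside a library do not depend on its scaling. The TPM ratio of cd4-1 to cd8a lay between 0.701 and 2.28 in pdx1+/- kidneys, against 0.431 in wild-type replicate 2 and 1.05 in replicate 3, so the genotypes overlapped. It is not given for wild-type replicate 1, where cd8a had 2 counts. Set against the mean of the 9 other genes, centred log2 CPM of cd4-1 stood at 0.29, -1.17 and -0.65 in wild type and from -0.32 to 0.64 in pdx1+/- kidneys. Thus cd4-1 was low relative to the other T cell genes in wild-type replicates 2 and 3. In wild-type replicate 1 cd4-1 was not low in this sense, because most of the other genes were low there too. Their mean in that library includes cd8a at -3.07, a value from 2 counts, which raises the 0.29.

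**Figure D2:**
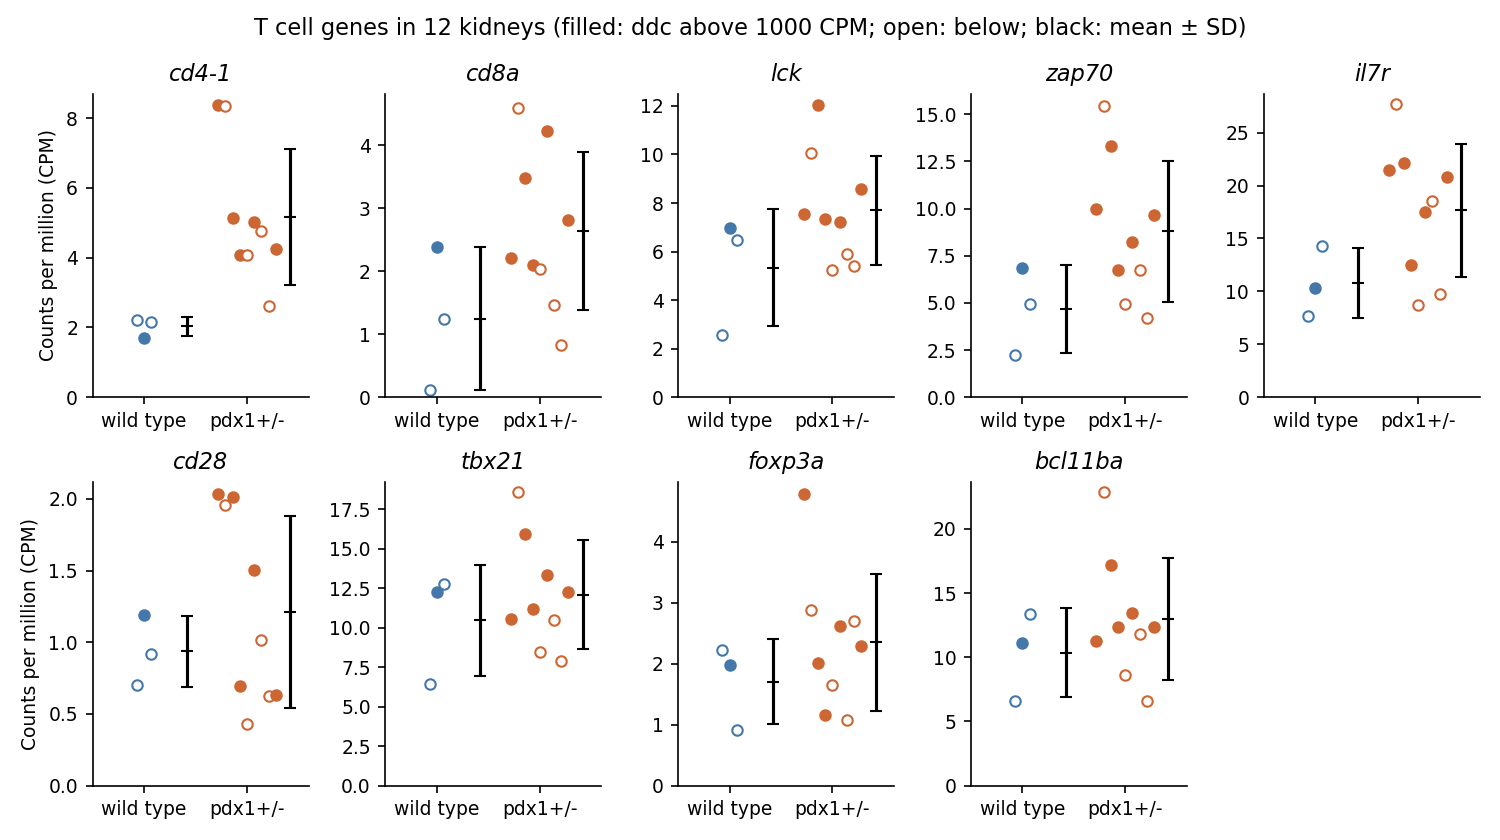
CPM of each gene by genotype; each point is 1 kidney (replicates left to right), filled where ddc exceeded 1000 CPM, and black marks give the mean ± SD (n = 3 and n = 9). Only in the cd4-1 panel do the genotypes not overlap, with at most 2.22 CPM in wild type and at least 2.60 CPM in pdx1+/-; in the other 8 panels they do.

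Among the kinase genes, lck, which encodes the Src family kinase bound to the coreceptors, had 2.57, 6.98 and 6.48 CPM in wild-type replicates 1 to 3. In pdx1+/- kidneys it ranged from 5.24 to 12.04 CPM, with a median of 7.34. Wild-type replicate 1 was below every pdx1+/- kidney, while replicates 2 and 3 lay within their range. The genotype estimate for lck was 0.52 ± 0.31 log2 units (adjusted p = 0.937 in edgeR), and 0.20 when that replicate was left out. Estimated counts of lck were not whole in 8 of 12 libraries (tolerance 0.001), so part of its reads fitted other transcripts as well.

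The gene zap70, whose kinase docks on the phosphorylated receptor chains, also had its highest levels in pdx1+/- replicates 2 and 3. Its levels were 2.22, 6.87 and 4.96 CPM in wild type and between 4.22 and 15.4 CPM in pdx1+/- kidneys, with a median of 8.24. In all, 5 of 9 pdx1+/- kidneys exceeded every wild-type kidney. This gave 0.91 ± 0.42 log2 units for zap70 (adjusted p = 0.873 in edgeR), with 0.58 when wild-type replicate 1 was left out. Its counts were whole in all 12 libraries.

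Of the receptor genes, il7r, which encodes the alpha chain of the interleukin 7 receptor, had 7.72, 10.3 and 14.25 CPM in wild type. The pdx1+/- kidneys lay between 8.71 and 27.7 CPM with a median of 18.5, and 6 of 9 were above every wild-type kidney. The genotype estimate for il7r was 0.71 ± 0.33 log2 units (adjusted p = 0.886 in edgeR). Its counts were whole in all 12 libraries, while those of cd28 were not whole in 6. The costimulatory receptor gene cd28 had the lowest counts after cd8a, with a minimum of 8, and levels of 0.701, 1.19 and 0.917 CPM in wild type and from 0.428 to 2.04 CPM in pdx1+/- kidneys. Its pdx1+/- values lay on both sides of wild type, with 4 kidneys above and 4 below every wild-type value, and its estimate was 0.37 ± 0.50 log2 units (adjusted p = 0.997 in edgeR), with 0.20 and 0.58 when wild-type replicates 1 and 2, in turn, were left out.

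Among the lineage genes, for tbx21, the T-bet gene of Th1, cytotoxic and NK cells, levels were 6.43, 12.3 and 12.7 CPM in wild type and 7.91 to 18.6 CPM in pdx1+/- kidneys (median 11.2). That amounted to 0.21 ± 0.27 log2 units (adjusted p = 0.997 in edgeR), and to -0.04 and 0.36 when wild-type replicates 1 and 3, in turn, were left out. For bcl11ba, a homologue of the T lineage commitment factor Bcl11b, the values were 6.61, 11.1 and 13.4 CPM against 6.61 to 22.9 CPM (median 12.3), which gave 0.32 ± 0.32 log2 units (adjusted p = 0.984 in edgeR), and 0.09 and 0.54 when the same libraries were left out. Its estimated counts were not whole in any library, and those of tbx21 were not whole in 9 of 12.

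The regulatory T cell gene foxp3a followed another order. It had 2.22, 1.99 and 0.917 CPM in wild-type replicates 1 to 3, so it was highest in the wild-type kidney in which most of the other genes were lowest. In pdx1+/- kidneys it ranged from 1.07 to 4.79 CPM with a median of 2.29, and the highest value was that of replicate 1. The estimate of foxp3a was 0.46 ± 0.43 log2 units (adjusted p = 0.983 in edgeR), with 0.16 when wild-type replicate 3 was left out and 0.70 when replicate 1 was. The TPM ratio of foxp3a to cd4-1 was 1.17, 1.35 and 0.491 in wild type and between 0.262 and 1.21 in pdx1+/- kidneys.

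Read together, 10 of 10 genes had a positive log2 fold change, with a median of 0.49, while 51.7% of all genes tested did, with a median of 0.01. Of the 10, cd8a passed the filter on low counts only through pdx1+/- kidneys, so the filter partly fixed its direction. None of the 10 passed the adjusted threshold of 0.05 in edgeR, where 1 of 23732 genes did (0.00421%). An unadjusted edgeR p under 0.05 with a higher level in pdx1+/- was found for 2 of the 10, cd4-1 and zap70, and for 3.14% of all genes. DESeq2 called 1 of the 10, cd4-1, and 0.272% of the 22788 genes to which it gave an adjusted p. The genes vary together between kidneys, so they are not 10 separate observations.

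**Figure D3:**
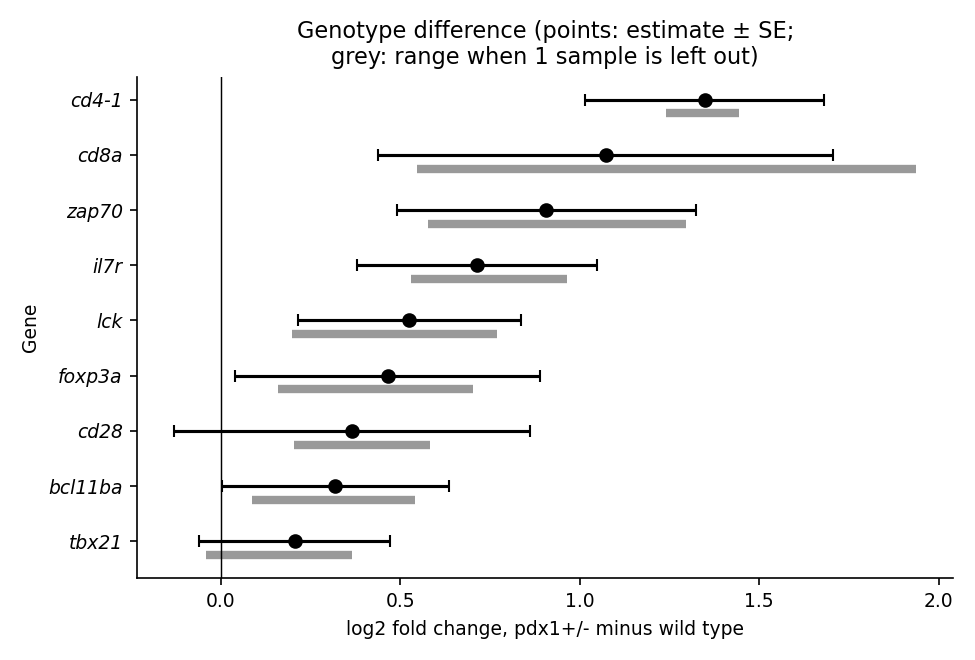
Log2 fold change (pdx1+/- minus wild type) of each gene with its approximate SE (edgeR, 3 against 9 kidneys); grey bars give the range when each of the 12 samples is left out in turn. All 9 estimates shown are above 0, cd4-1 is highest at 1.35, and the grey bar of tbx21 reaches -0.04.

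In 8 of the 10 genes the lowest estimate with 1 sample left out came without wild-type replicate 1; the exceptions were cd4-1 and foxp3a. The median of the 10 was then 0.37. For cd4-1, leaving out any single sample gave between 1.24 and 1.44. The share of a library's counts on the only gene ID annotated as ribosomal RNA also moved with genotype. It was 4.1% to 5.64% in wild type and 5.71% to 9.1% in pdx1+/- kidneys. With its level as a covariate the log2 fold change was 1.14 for cd4-1, 0.40 for zap70 and 0.30 for il7r. For foxp3a it was 0.02 and for cd28 -0.05. It was 0.31 for lck, 0.22 for bcl11ba and 0.135 for tbx21, while cd8a had 1.16 with the covariate and 1.07 without. The edgeR adjusted p with the covariate was 0.9998 for each of them. The genotypes did not overlap in this share, so ribosomal RNA and genotype cannot be told apart here. The part of ribosomal RNA in the difference was not tested.

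Most of these genes shared 1 profile across the 12 kidneys. Centred log2 CPM, averaged over the 10, was lowest in wild-type replicate 1 at -1.05, followed by pdx1+/- replicates 8 and 5 at -0.60 and -0.36. It was highest in pdx1+/- replicates 2, 3 and 1, at 0.92, 0.66 and 0.49. Of the 10 genes, 6 had their lowest value in wild-type replicate 1 and 6 their highest in pdx1+/- replicate 2. Wild-type replicate 3 had -0.24, above only these 3 lowest kidneys. Wild-type replicate 2 had -0.10, above only these 3 and wild-type replicate 3. So 7 of 9 pdx1+/- kidneys were above every wild-type kidney, but replicates 4 and 7 only narrowly, at -0.10 and -0.09.

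How closely a gene followed the others was measured as the root mean square difference from the mean of the other 9, in log2 units over the 12 kidneys. It was smallest for zap70 (0.25), lck (0.26), bcl11ba (0.26), il7r (0.27) and tbx21 (0.27). It was 0.45 for cd28 and 0.48 for cd4-1. It was largest for foxp3a (0.73) and cd8a (0.79), the second of which rests largely on 2 counts in wild-type replicate 1.

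**Figure D4:**
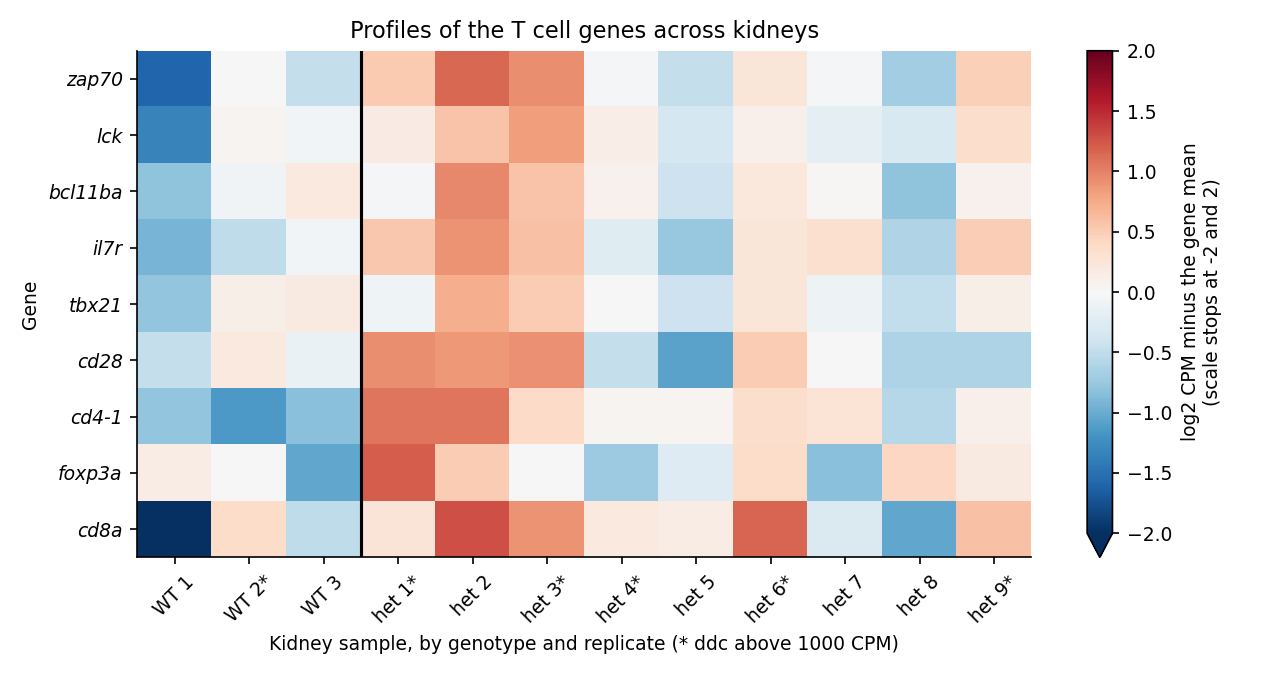
Log2 CPM of each gene minus its mean over the 12 kidneys (colour; the scale stops at -2 and 2), with kidneys as columns (WT, wild type; het, pdx1+/-; asterisk, ddc above 1000 CPM) and genes ordered by how closely they follow the other 9. Wild-type replicate 1 is low for most genes, pdx1+/- replicates 2 and 3 are high for most, and foxp3a and cd4-1 deviate in the wild-type columns.

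Outside the set, the gene most like the mean profile among 14670 named genes was satb1b, at a root mean square difference of 0.11 log2 units over the 12 kidneys. Its mammalian homologue encodes a chromatin organiser needed for T cell development. It had 5.787, 11.01 and 10.79 CPM in the wild-type replicates and 6.98 to 23.7 CPM in pdx1+/- kidneys, a log2 fold change of 0.68 ± 0.33 (edgeR, adjusted p = 0.894). Next were il12rb1, a chain of the interleukin 12 receptor, at 0.18, lamp3, a lysosomal membrane protein gene known from mature dendritic cells in humans, at 0.21, and prkd4, at 0.22. After these, stard13b and the lipase gene lipia followed, each at 0.23. They were picked for their likeness, and nothing further was tested on them.

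The kidneys fell into separate ranges of ddc, the gene of aromatic L-amino acid decarboxylase, and the cut of 1000 CPM was chosen on these measured levels. Wild-type replicate 2 and pdx1+/- replicates 1, 3, 4, 6 and 9 had between 4332 and 6469 CPM, and the other 6 kidneys between 111 and 220 CPM, so no kidney lay near the cut. These ranges are not groups of the study, and no test was made between them.

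The T cell genes overlapped between the ddc ranges, and for no gene did all 6 kidneys above the cut exceed all 6 below it. Of the 4 pdx1+/- kidneys with little ddc, replicate 2 was the highest for all 10 genes. Leaving it out for that reason left 5 pdx1+/- kidneys above the cut and 3 below. The pdx1+/- ranges then did not overlap for cd8a, lck, zap70 and tbx21, and still did for the other 6. With replicate 2 kept, they overlapped for all 10 genes. This kidney was left out for its own high levels, so the separation follows in part from that choice. How many of all genes do not overlap in this split was not computed, so the count only describes these kidneys. For lck the 5 pdx1+/- kidneys above the cut had 7.24 to 12.04 CPM, and those below had 10.1 CPM in replicate 2 and 5.24, 5.88 and 5.41 CPM in replicates 5, 7 and 8. For cd8a the 5 had 2.10 to 4.23 CPM, against 4.595 CPM in replicate 2 and 2.03, 1.47 and 0.833 CPM in the other 3. With zap70 and tbx21 too, each of the 5 exceeded each of these 3. The gaps were as narrow as 6.75 against 6.73 CPM for zap70 and 10.57 against 10.52 CPM for tbx21. For cd8a, 2.10 CPM in replicate 4 came from 36 counts and 2.03 CPM in replicate 5 from 38, so their order came from library scaling.

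For cd4-1, il7r and cd28, 3 of the 5 exceeded each of pdx1+/- replicates 5, 7 and 8, for bcl11ba 4 and for foxp3a 1. Among wild-type kidneys replicate 2, the only 1 above the cut, had the highest cd8a, lck, zap70 and cd28 and the lowest cd4-1. In the genotype comparison with the ddc range as a covariate, log2 fold changes were 1.34 for cd4-1, 0.85 for zap70 and 0.67 for il7r, and no gene of the 10 was called (edgeR, lowest adjusted p = 0.399).

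Other blood cell markers varied across the same kidneys. The summed TPM of 10 erythroid markers was highest in wild-type replicate 1 (57000), followed by pdx1+/- replicates 5 (55010) and 4 (53360). It was lowest in wild-type replicate 2 (11000) and pdx1+/- replicates 2 (13190) and 3 (20390). For 9 neutrophil markers the sums were 5073, 2649 and 6047 TPM in the wild-type replicates and 1826 to 4895 TPM in pdx1+/- kidneys. B cell markers summed to between 177 and 213 TPM in wild type and 121 and 227 TPM in pdx1+/- kidneys, and 5 of 14 were higher in the latter. So the kidneys with the highest T cell genes, pdx1+/- replicates 2 and 3, were among those with the least erythroid RNA, but wild-type replicate 2 had the least without high T cell genes. Of all 12 kidneys, pdx1+/- replicate 2 also had the highest B cell and macrophage sums (227 and 4170 TPM). Its sum of 10 proximal tubule markers was the lowest (1004 TPM). In pdx1+/- replicate 3 these sums were 147, 3050 and 1685 TPM. The part of cell composition in the T cell differences was not tested.

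**Figure D5:**
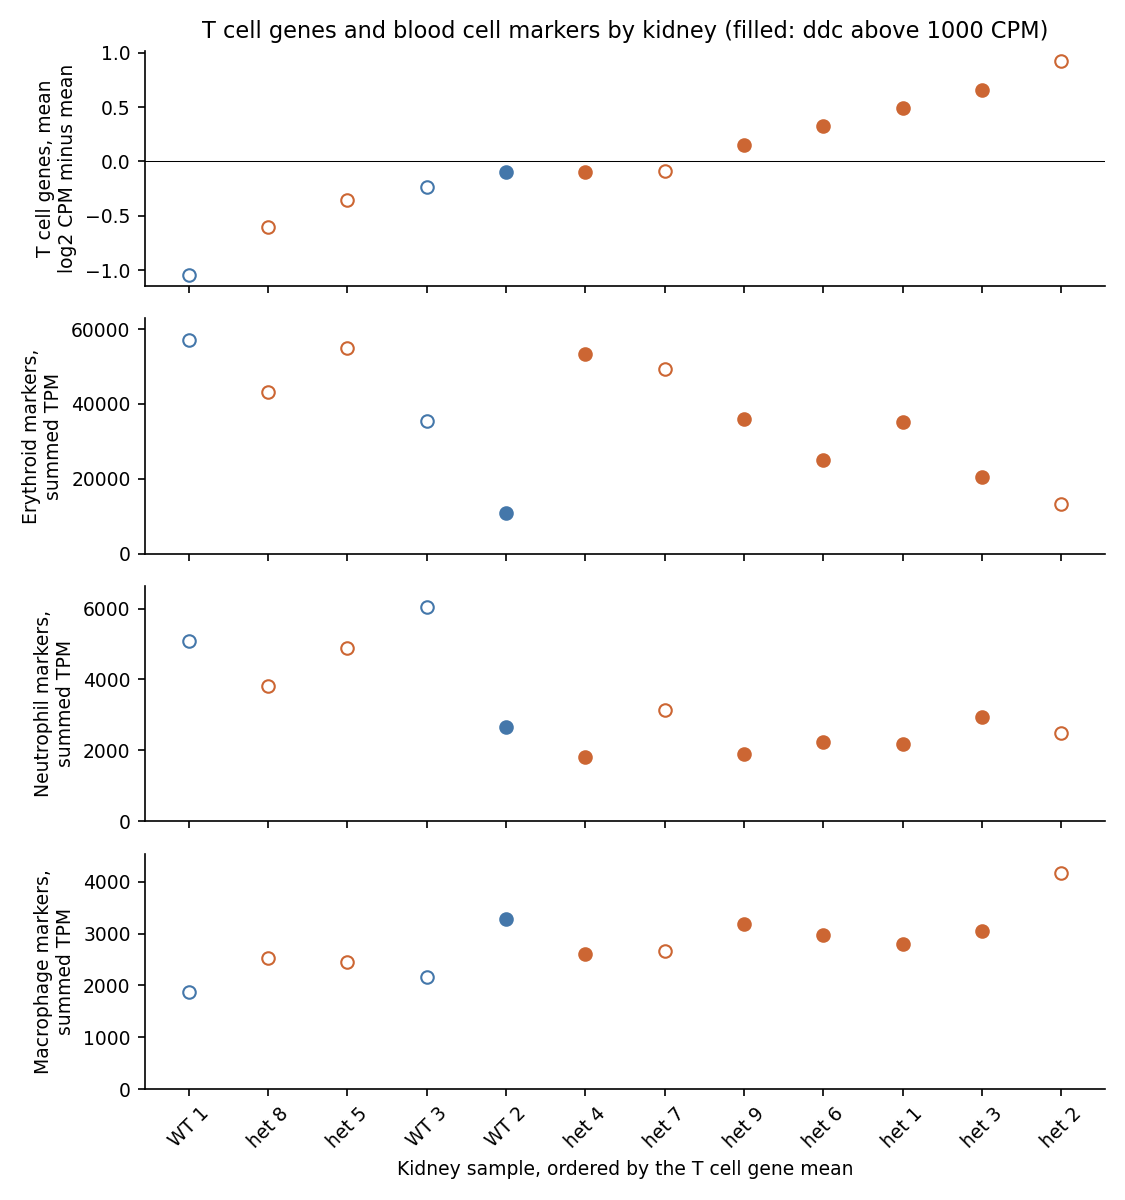
Kidneys ordered by the mean centred log2 CPM of the 10 T cell genes (top), with the summed TPM of erythroid, neutrophil and macrophage markers below; blue points are wild type, orange pdx1+/-, and filled points have more than 1000 CPM of ddc. Wild-type replicate 1 combines the lowest T cell gene mean (-1.05) with the highest erythroid sum (57000 TPM), and pdx1+/- replicate 2 the highest mean (0.92) with 13190 TPM.

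Replicate 2 of pdx1+/- also stood apart in klf2a, a Krüppel-like factor gene whose mammalian relative keeps T cells quiescent and circulating. It had 108000 CPM there and 1227 to 2128 CPM in the other 11 kidneys. Without this library the median log2 fold change of the 10 T cell genes was 0.45.

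The wider T cell programme was read from 9 lists of 214 symbols, of which 170 were in the files and 152 were tested. Without the 10 genes, 98 of 142 were higher in pdx1+/- kidneys and 44 lower (median 0.14 log2 units), and 0 passed in edgeR or DESeq2 over all genes. Of all genes tested, 51.7% were higher (median 0.01), and the counts of each list below are to be read beside this share. At an unadjusted edgeR threshold of 0.05, 17 of the 142 were higher and 5 lower, where 3.14% of all genes tested were higher and 2.54% lower. Some of the 17, among them faslg, passed the filter on low counts only through pdx1+/- kidneys. The receptor itself was represented by 3 genes. For trdc, named for the constant region of the T cell receptor delta chain, levels were 1.46, 2.95 and 2.91 CPM in wild type and 2.88 to 7.63 CPM in pdx1+/- kidneys, with 8 of 9 above every wild-type kidney. The log2 fold change of trdc was 1.19 ± 0.35 (edgeR, adjusted p = 0.687). cd247, the gene of the zeta chain that Zap70 binds, and cd247l had 0.13 ± 0.44 and 0.15 ± 0.30.

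Of 38 tested genes of proximal signalling, 24 had a higher level in pdx1+/- kidneys and 14 a lower (median 0.11 log2 units). The smallest p in this list belonged to lower genes. These were wasb, a Wiskott-Aldrich syndrome protein homologue that shapes the actin cytoskeleton, at -0.56 ± 0.16, the phosphatase gene ptpn22 at -0.37 ± 0.12 and the adaptor gene grap2b at -0.38 ± 0.13. Next came txk, a Tec family kinase of T cells, at 0.68 ± 0.24, with 8 of 9 pdx1+/- kidneys above every wild-type kidney. Their edgeR adjusted p lay between 0.627 and 0.794. The most abundant genes of the list, the CD45 gene ptprc and coro1a, an actin regulator of leukocytes, averaged 82.1 and 54.6 TPM. Both were higher in pdx1+/- kidneys, at 0.14 ± 0.15 and 0.69 ± 0.315 log2 units (edgeR, adjusted p = 0.988 and 0.872).

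All 10 tested genes of costimulation and inhibition had positive estimates (median 0.43 log2 units); these include cd28 and also cd247, which the list holds although it is a receptor chain. The CD40 ligand gene cd40lg, by which helper T cells signal to B cells, had 0.74 ± 0.39, tnfrsf18 0.94 ± 0.53, the adhesion receptor gene cd2 0.50 ± 0.29 and cd226 0.52 ± 0.41 (edgeR, adjusted p between 0.910 and 0.967). Of 17 cytokine receptor genes 11 had positive estimates (median 0.11). Among them il21r.1, a receptor gene for interleukin 21, averaged 27.9 ± 9.87 CPM over pdx1+/- kidneys (SD, n = 9) and 11.6 ± 6.72 CPM over wild type (n = 3), an estimate of 1.27 ± 0.39 log2 units (adjusted p = 0.694 in edgeR).

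Of 30 transcription factors of the T lineage 20 had positive estimates (median 0.12). Besides satb1b, those with the smallest p were prdm1a at 0.54 ± 0.27, runx3, which in mice directs the CD8 lineage, at 0.45 ± 0.23, and irf4b at 0.65 ± 0.41 (edgeR, adjusted p between 0.894 and 0.947). The most abundant, ets1 and ikzf1, were at -0.09 and -0.08.

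Of 29 effector genes of T and NK cells in the files, 18 passed the filter on low counts. Positive estimates were found for 15 of these 18 (median 0.43 log2 units). An unadjusted edgeR p under 0.05 was found for 6 of the 18, all higher, beside 3.14% of all genes. The 3 with negative estimates were il22 at -0.95 ± 0.47, il26 at -0.89 ± 0.55 and nkl.4 at -0.155 ± 0.79 (edgeR, adjusted p between 0.897 and 0.9993). The Fas ligand gene faslg encodes a killing molecule of cytotoxic cells. It had 2, 8 and 6 estimated counts in wild type and 9 to 34 in pdx1+/- kidneys, so its CPM did not overlap between genotypes. Every pdx1+/- kidney was above every wild-type kidney for 0.695% of all genes tested, and in the 9 lists only for faslg and cd4-1. For faslg the estimate was 1.66 ± 0.52 log2 units (adjusted p = 0.707 in edgeR). The interferon gamma gene ifng1 had 4, 10 and 8 counts against 4 to 38, a log2 fold change of 1.63 ± 0.58. For il10, an anti-inflammatory cytokine gene, it was 1.74 ± 0.63, and for gzma, a granzyme gene, 0.48 ± 0.19. These genes rest on few reads, apart from gzma at 13.9 ± 2.95 CPM in pdx1+/- kidneys. Wild-type counts of faslg, ifng1 and il10 were too low to pass the filter alone. They entered through pdx1+/- kidneys, so the filter partly fixed their direction, and the count of higher genes is only a description.

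Of 23 homing genes 15 had positive estimates (median 0.04). The chemokine gene ccl19a.1, whose mammalian relative draws T cells into lymphoid tissue, had 17.4 ± 6.19 CPM in wild type and 58.7 ± 34.3 CPM in pdx1+/- kidneys, a log2 fold change of 1.76 ± 0.56 (edgeR, adjusted p = 0.738). The chemokine gene ccl38.6 had 1.21 ± 0.50, the integrin gene itgb7 0.41 ± 0.18 and klf2b -0.19 ± 0.09. Of genes of antigen receptor recombination and the thymic epithelium, positive estimates were found for 7 of 10 (median 0.11). The recombinase gene rag1, active in lymphocyte precursors, was lower, at 3.97 ± 1.12 CPM against 6.51 ± 2.41 CPM in wild type, a log2 fold change of -0.71 ± 0.26 (edgeR, adjusted p = 0.808). Its partner rag2 was at 0.05 ± 0.28.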

How the data were processed

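Trim Galore 0.6.4, kallisto (given as 0.4.6) and the build GRCz11 are named, per the submitters' processing notes. Annotation, strandedness and gene-level summing are not given in the sources used here. For each kidney the authors deposited estimated counts, not normalized, and TPM values (scaled for length and library size) for 30238 Entrez IDs. Symbols came from a RefSeq table of another assembly (GRCz12tu), which named 25812 IDs. Estimated counts were rounded and tested in R 4.3.3 with edgeR 4.0.16 (filterByExpr, minimum count 10; TMM; robust quasi-likelihood F test; all 12 samples, no covariate), with Benjamini-Hochberg adjustment over all 23732 genes and a threshold of 0.05. Standard errors are the fold change over the square root of F. Log2 CPM used a prior count of 2; likeness was ranked among genes with a mean CPM of at least 2. TPM served for levels, ratios and marker sums. The step was tested on simulated data.

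The values of 1 member are not reported here, though counts and medians over the 10 include it. The members and lists were chosen with earlier results of these data known. Lists were matched by exact symbol. The text names up to 4 tested genes per list with the smallest p and up to 2 with the highest TPM, and the 6 nearest in profile. A few others, such as the effector genes with negative estimates, are named beside these. Alternatives used DESeq2 1.42.0 and limma 3.58.1, other scalings and filters, log2(TPM + 1) and log2(TPM + 0.1), covariates, a block for the replicate number, and fits with 1 sample left out. No sequences were printed, because sequence tables were not used here.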

Additional observations from a re-analysis of the deposited data

Results flagged for a closer look

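In the 9 pdx1+/- kidneys, foxp3a was far from the others in replicate 1, at 4.79 CPM, while the next highest was 2.88 CPM in replicate 2. The gap made up 0.514 of the group's range, above the critical value of 0.493 for 9 samples. Such a flag arises in about 1 of 20 groups by chance, and 10 genes were examined. The same kidney had the highest cd4-1 and cd28 among the 12, at 8.37 and 2.04 CPM.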

How the results depend on the processing

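Over 23 alternatives, cd4-1 kept a positive log2 fold change, from 0.84 to 1.81, and passed the threshold only in DESeq2 (adjusted p over all alternatives from 0.0375 to 0.9998). For cd8a, lck, zap70, il7r, foxp3a and bcl11ba the direction held in all 23 and no alternative gave a call. The direction turned for cd28 with the ribosomal RNA covariate (-0.053) and for tbx21 without wild-type replicate 1 (range with 1 sample left out, -0.043 to 0.364). The number of genes called among all tested was 1, but 62 in DESeq2, 3 in limma-trend on log2(TPM + 0.1), 3 with the ddc range as a covariate and 0 with the replicate block; with 1 sample left out it was between 1 and 4. Of the 10 genes DESeq2 called 1, and of the wider lists 1, in both cases cd4-1. Ordering the 10 genes by CPM in place of TPM moved 8 of them, with bcl11ba going from eighth to second. Same-numbered samples did not deviate together (correlations of -0.22, -0.16 and 0.10 over genes), but 3 pairs cannot decide whether the numbers pair them. Under the replicate block the median log2 fold change of the 10 was 1.08 against 0.49. In that fit pdx1+/- replicates 4 to 9 have no wild-type sample of the same number. The block estimate therefore rests on pdx1+/- replicates 1 to 3, the kidneys with the highest mean of the 10 genes. Causes were not tested. At 2 counts, the level of cd8a in wild-type replicate 1 is not resolved at this depth.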
